A study of Mus musculus with 10 samples.

Results

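CD antigens are membrane proteins that are told apart by the antibodies raised against them, and they are the usual handles for sorting lymphocytes. Transcripts of these antigens were followed through activation and division of mouse splenic B cells. The members were every gene symbol made of Cd and a number, with at most 1 letter and 1 digit after it, except Cd5, Cd9 and Cd74. Transcripts were summed by symbol. This gave 49 of the 6610 genes in the deposited table. By known expression they were split into 17 B cell antigens, 10 antigens shared by many leukocytes, 9 antigens of T and NK cells, 11 of myeloid cells, 1 of progenitor and endothelial cells (Cd34) and 1 left unclassified (Cd99l2). Cd24a, Cd72, Cd81 and Cd83, which also mark B cells, are not analysed here.

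The cells were B lymphocytes from the spleen of C57BL/6 mice, an inbred laboratory strain, in 5 groups of 2 libraries. The naive group was resting cells that received no activation. The div0 and div12 groups (Phase I) were stimulated with a pulse of anti-IgM, which engages the antigen receptor, plus anti-CD40, which mimics T cell help. They were taken at 48 h as undivided (div0) or divided (div12) cells. For Phase II, div12 cells were kept for a further 48 h with 0.12 µg/ml anti-CD40 and sorted by whether they stayed undivided in that time (div12_48_u) or divided further (div12_48_d). Each Phase I replicate was an independent pool of 4 to 5 mice, and what a Phase II replicate consisted of is not given in the sources used here. With 2 libraries a group, p-values measure the spread between these libraries, which in Phase II may be technical. The 4 cultured groups share exposure to both antibodies, and Phase II differs from Phase I in culture time, anti-CD40 treatment and cell input together.

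As background, a B cell senses antigen through membrane immunoglobulin, which carries no signalling tail of its own and relies on the paired chains Cd79a and Cd79b. Cd22 damps that signal by recruiting a phosphatase, and Cd40 receives help from T cells. Activated B cells return signals to T cells through Cd80 and Cd86, the ligands of Cd28 and Ctla4. Other CD antigens of B cells govern complement control (Cd55), adhesion (Cd2, Cd44), lipid presentation (Cd1d1) and organisation of the membrane (the tetraspanins Cd37, Cd53, Cd82 and Cd151).

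Promoter windows from the RefSeq table of GRCm38.p6, 250 bases before to 50 after the start, matched 35 of the 49 members, in 42 windows of 300 bases. The windows of 4 members described below are shown, namely the receptor chain Cd79a, the inhibitory co-receptor Cd22, the complement regulator Cd55 and the adhesion receptor Cd44. All 4 hold a core named next. Capitals mark the core GAGGAA of PU.1, a factor of B and myeloid cells, in Cd79a and Cd44, and the core CCCNNGGG of EBF1, a B cell factor, in Cd22 and Cd55. On the opposite strand the PU.1 core reads TTCCTC, as in both windows shown. Cd79a lies at chr7:24897247-24897546 (plus strand), Cd22 at chr7:30878979-30879278 (minus strand), Cd55 at chr1:130462695-130462994 (minus strand) and Cd44 at chr2:102901616-102901915 (minus strand), each written 5′ to 3′ on the strand of its gene.
Cd79a: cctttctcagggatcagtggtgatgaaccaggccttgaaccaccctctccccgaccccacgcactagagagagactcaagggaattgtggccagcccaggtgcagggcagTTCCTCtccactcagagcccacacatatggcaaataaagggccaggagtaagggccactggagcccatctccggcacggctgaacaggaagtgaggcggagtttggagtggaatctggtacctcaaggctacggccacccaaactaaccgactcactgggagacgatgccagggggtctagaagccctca
Cd22: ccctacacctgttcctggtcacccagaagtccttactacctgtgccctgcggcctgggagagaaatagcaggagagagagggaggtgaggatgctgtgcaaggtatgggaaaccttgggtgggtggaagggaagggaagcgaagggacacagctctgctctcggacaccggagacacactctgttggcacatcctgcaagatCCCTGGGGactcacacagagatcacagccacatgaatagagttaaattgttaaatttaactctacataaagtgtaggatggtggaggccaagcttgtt
Cd55: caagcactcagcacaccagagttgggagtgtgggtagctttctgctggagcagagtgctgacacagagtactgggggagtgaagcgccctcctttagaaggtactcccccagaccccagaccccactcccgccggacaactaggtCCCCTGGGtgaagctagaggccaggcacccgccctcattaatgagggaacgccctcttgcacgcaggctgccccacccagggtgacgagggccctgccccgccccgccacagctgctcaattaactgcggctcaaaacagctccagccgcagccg
Cd44: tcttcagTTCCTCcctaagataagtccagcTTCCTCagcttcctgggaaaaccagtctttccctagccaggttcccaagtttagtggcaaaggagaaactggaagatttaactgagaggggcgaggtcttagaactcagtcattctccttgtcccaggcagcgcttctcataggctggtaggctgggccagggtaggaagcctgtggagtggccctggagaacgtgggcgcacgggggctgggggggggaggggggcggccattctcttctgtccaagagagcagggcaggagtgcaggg
Searched on both strands, the PU.1 core was in 15 of the 42 windows (35.7%) against 28.3% of all 32851 promoter windows of that length. The EBF1 core was in 9 of 42 (21.4%) against 13.7%. The 2 cores can share at most 1 base. These are matches of letters in a window and not known binding sites. The windows of Cd36 and Cd80, described below, held neither core.

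Levels are in TPM, which sets each transcript relative to its length and to the other transcripts listed in a library, so levels can be compared between genes, and a library total of 1000000 TPM leaves the sequencing depth unknown. Differences are log2 fold changes of TPM + 1 with their standard error from limma, which understate the change of genes with low levels. Rise, fall and called are used of genes whose Benjamini-Hochberg adjusted p, over all 4427 genes tested, was under 0.05. In sentences on calls that were lost, top transcript means that only the most abundant transcript of each gene was used, and both groups alone that no other group entered the fit. Of the 49 members 47 passed the filter of at least 1 TPM in at least 2 libraries. Cd207 was at 0 TPM in every library and Cd34 reached at most 0.974 TPM, and neither was tested. Less RNA of a gene per cell and fewer cells that carry it cannot be told apart in these bulk libraries.

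The naive libraries also held RNA of other spleen cells. Summed levels of fixed marker lists were higher in naive than in any cultured library for macrophages (13 of 16 markers in the table, 2988 and 5277 TPM in naive against 2049 to 2565 in culture), T cells (8 of 13 markers, 838 and 1105 against 368 to 813), NK cells (6 of 11, 137 and 197 against 9.98 to 25.3), granulocytes (5 of 9, 176 and 450 against 0.232 to 15.8) and erythroid cells (6 of 10, 2763 and 3274 against 21.3 to 69.6). The macrophage sum in culture was carried by Ctss and Mpeg1, while C1qa was at 0 TPM in all 8 cultured libraries. The T cell sum in naive was carried by Gimap3 (654 and 897 TPM) and Lck (125 and 133 TPM). Lck was higher in Phase II, at 346 to 445 TPM, while Thy1 was at 7.62 and 10.6 TPM in naive. The sums of dendritic cells (58.4 and 100 TPM in naive against 34.2 to 107 in culture) and plasma cells (359 and 566 against 154 to 749) were not above all cultured libraries. The B cell markers summed to 22791 and 23947 TPM in naive and to 15077 to 20294 TPM in culture, so the B cell label held in all 10 libraries. Sums of other lists also differed between cultured groups. The dendritic cell markers (6 of 9) summed to 83.4 and 107 TPM in div12 and 34.2 to 48.7 TPM in the other cultured libraries, carried by Flt3, with Itgax at or below 1.63 TPM. The T cell sum in Phase II, 755 to 813 TPM against 368 to 507 TPM in Phase I, was carried by Lck and Gimap3, with Thy1 at most 0.753 TPM. The plasma cell markers (5 of 7) summed to 595 and 749 TPM in div12_48_d and 154 to 184 TPM in the other cultured libraries, carried by Jchain. The NK cell sum was 23.4 and 25.3 TPM in div12_48_d and 9.98 to 17.3 TPM in the other cultured libraries, carried by Il2rb, with Ncr1 at 0 TPM in both div12_48_d libraries. In div12_48_u the erythroid sum was 49.7 and 69.6 TPM, against 21.3 to 37.4 TPM in the other cultured libraries. The platelet sum (3 of 6 markers) was at least 9.35 TPM in both libraries there, against 4.18 to 6.80 TPM. The part of other cells in the comparisons was not tested.

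Of the 47 tested CD antigens, 11 passed the filter of 1 TPM in 2 libraries without reaching that level in 2 cultured libraries. So did 274 of all 4427 tested genes. The filter favours a lower level in culture for such genes. Counts against naive are therefore given for the 36 members and 4153 genes that reached this level in at least 2 cultured libraries. Of the 36, 24 were called in div0 against naive, 5 higher and 19 lower, where 53.1% of the 4153 genes were called, 16.4% higher and 36.7% lower. In div12 against naive 32 were called, 10 higher and 22 lower, against 65.5% of the genes (20.7% higher, 44.9% lower). Among the 17 B cell antigens, 11 were called in div0 (2 higher, 9 lower) and 16 in div12 (3 higher, 13 lower), with medians of -0.38 and -0.57 on the log2 scale against -0.24 and -0.35 over all genes. The shared antigens had 2 higher and 4 lower of 10 in div0, and 4 higher and 4 lower in div12. All 17 and all 10 of these were among the 36. The 11 left out were 4 antigens of T and NK cells and 7 of myeloid cells, which left 5 and 3 in those lists. Over all 47 members, the 11 included, the calls numbered 5 higher and 30 lower in div0, where 54.9% of the 4427 genes were called, and 10 and 33 in div12, where 66.9% were. Under median-ratio scaling, which brings the all-gene median of both comparisons to 0.00, these 47 split into 9 higher and 24 lower in div0 and 10 and 26 in div12. Quantile normalization gave 9 and 28 in div0.

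Differences among cultured groups were fewer. In div12 against div0, 4 members rose and 3 fell, where 8.76% of all genes were called (3.68% higher, 5.08% lower). In div12_48_u against div12, 9 rose and 8 fell, where 41.3% were called (27.7% higher, 13.6% lower), and in div12_48_d against div12, 8 rose and 5 fell, where 15.9% were called (11.9% higher, 4.09% lower). In div12_48_d against div12_48_u, 5 rose and 4 fell, where 25.6% were called (12.2% higher, 13.4% lower). The B cell antigens had 1 higher and 2 lower, 8 and 4, 5 and 3, and 1 and 2 of 17 in these 4 comparisons. The split of higher and lower moved with scaling: median-ratio scaling gave 7 and 1, 6 and 11, 5 and 8, and 6 and 2 members, and quantile normalization 6 and 2, 8 and 10, 5 and 6, and 5 and 6. The counts also changed when single libraries were left out. This lowers the degrees of freedom and alters the spread shared by all groups, so that it also acts on comparisons the library is not part of. The 17 calls of div12_48_u against div12 became 11 without either div12 library or div12_48_u replicate 2. The 13 of div12_48_d against div12 became 8 without either div0 library, 6 and 7 without div12 replicate 1 and 2, and 7 and 5 without div12_48_d replicate 1 and 2. The 9 between the Phase II groups became 5 without div12_48_u replicate 2 and 4 without div12_48_d replicate 1. The 7 of div12 against div0 are taken up with division below.

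The antigen receptor chains were among the most abundant transcripts of these cells, and both were lower in divided Phase I cells than in resting cells. Cd79a, the chain that pairs with Cd79b, stood at 10896 and 10712 TPM in naive, 8571 and 8086 in div0, 6235 and 6684 in div12, 8501 and 8539.5 in div12_48_u and 6746 and 7608 in div12_48_d. In naive libraries its mean ranked 7 of 6610 genes. It was lower in every cultured library than in either naive one, and within culture lowest in div12. The log2 difference from naive was -0.38 ± 0.09 (adjusted p = 0.00650) in div0 and -0.74 ± 0.09 (adjusted p = 1.29e-04) in div12. In addition div12 was below div0 with a log2 change of -0.37 ± 0.09 (adjusted p = 0.0394), and div12_48_u above div12 by 0.40 ± 0.09 (adjusted p = 0.00668). Cd79b stood at 4015 and 5443 TPM in naive, 4472 and 4162 in div0, 3224 and 3726 in div12, 4595 and 5093 in div12_48_u and 3479 and 4318 in div12_48_d. The 2 naive libraries of Cd79b straddled most of the others. For this chain div12 was lower than naive with a log2 change of -0.43 ± 0.16 (adjusted p = 0.0411) and div12_48_u above div12 by 0.48 ± 0.16 (adjusted p = 0.0422). The ratio of Cd79a to Cd79b was 2.71 and 1.97 in naive and 1.68 to 1.94 in culture. The div0 difference of Cd79a was lost without div0 replicate 2, or with median-ratio scaling (adjusted p from 0.0546 to 0.458). Its difference between div12 and div0 was lost without either div0 library, either div12 library or either div12_48_u library, or with no filter, median-ratio scaling, quantile scaling, a replicate block, a crossed replicate block or no trend (adjusted p from 0.0530 to 0.266), and that of div12_48_u with median-ratio scaling (adjusted p = 0.251). For Cd79b, the div12 call was lost without naive replicate 2, either div0 library, either div12 library or either div12_48_u library, or with no filter, median-ratio scaling, both groups alone or no trend (adjusted p from 0.0520 to 0.805). Its div12_48_u call was lost without either div0 library, either div12 library or either div12_48_u library, or with no filter, median-ratio scaling, quantile scaling or no trend (adjusted p from 0.0637 to 0.252).

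Cd37, a tetraspanin of mature B cells, stood at 3715 and 4044 TPM in naive, 3836 and 3757 in div0, 3086 and 3113 in div12, 3155 and 2810.4 in div12_48_u and 2576 and 2553 in div12_48_d, with both div12 libraries below all naive and div0 ones. Among the comparisons run it was called in div12 against naive alone, at -0.32 ± 0.08 (adjusted p = 0.00706). After subtracting the all-gene median of this comparison the change was 0.02, and it turned to a small positive value, 0.058, under median-ratio scaling. The call of Cd37 was lost with median-ratio scaling or the top transcript (adjusted p from 0.203 to 0.568).

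Cd22, the inhibitory lectin of the receptor, stood at 2153 and 2210.5 TPM in naive, 1400.0 and 1355 in div0, 1123 and 914 in div12, 1562 and 1419 in div12_48_u and 736 and 865 in div12_48_d. It was highest in naive, lower in both Phase I groups, and lowest in div12_48_d, whose 2 libraries lay below all others. Cd22 fell with a log2 change of -0.66 ± 0.12 (adjusted p = 0.00194) in div0 and -1.11 ± 0.12 (adjusted p = 7.87e-05) in div12. It was higher in div12_48_u than div12 by 0.56 ± 0.12 (adjusted p = 0.00606), and differed between the Phase II groups with a log2 change of -0.90 ± 0.12 (adjusted p = 0.00198) for div12_48_d against div12_48_u. These 4 calls of Cd22 held under all alternatives run. Against div0, div12 gave -0.44 ± 0.12 (adjusted p = 0.0507), which was not called.

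**Figure D1:**
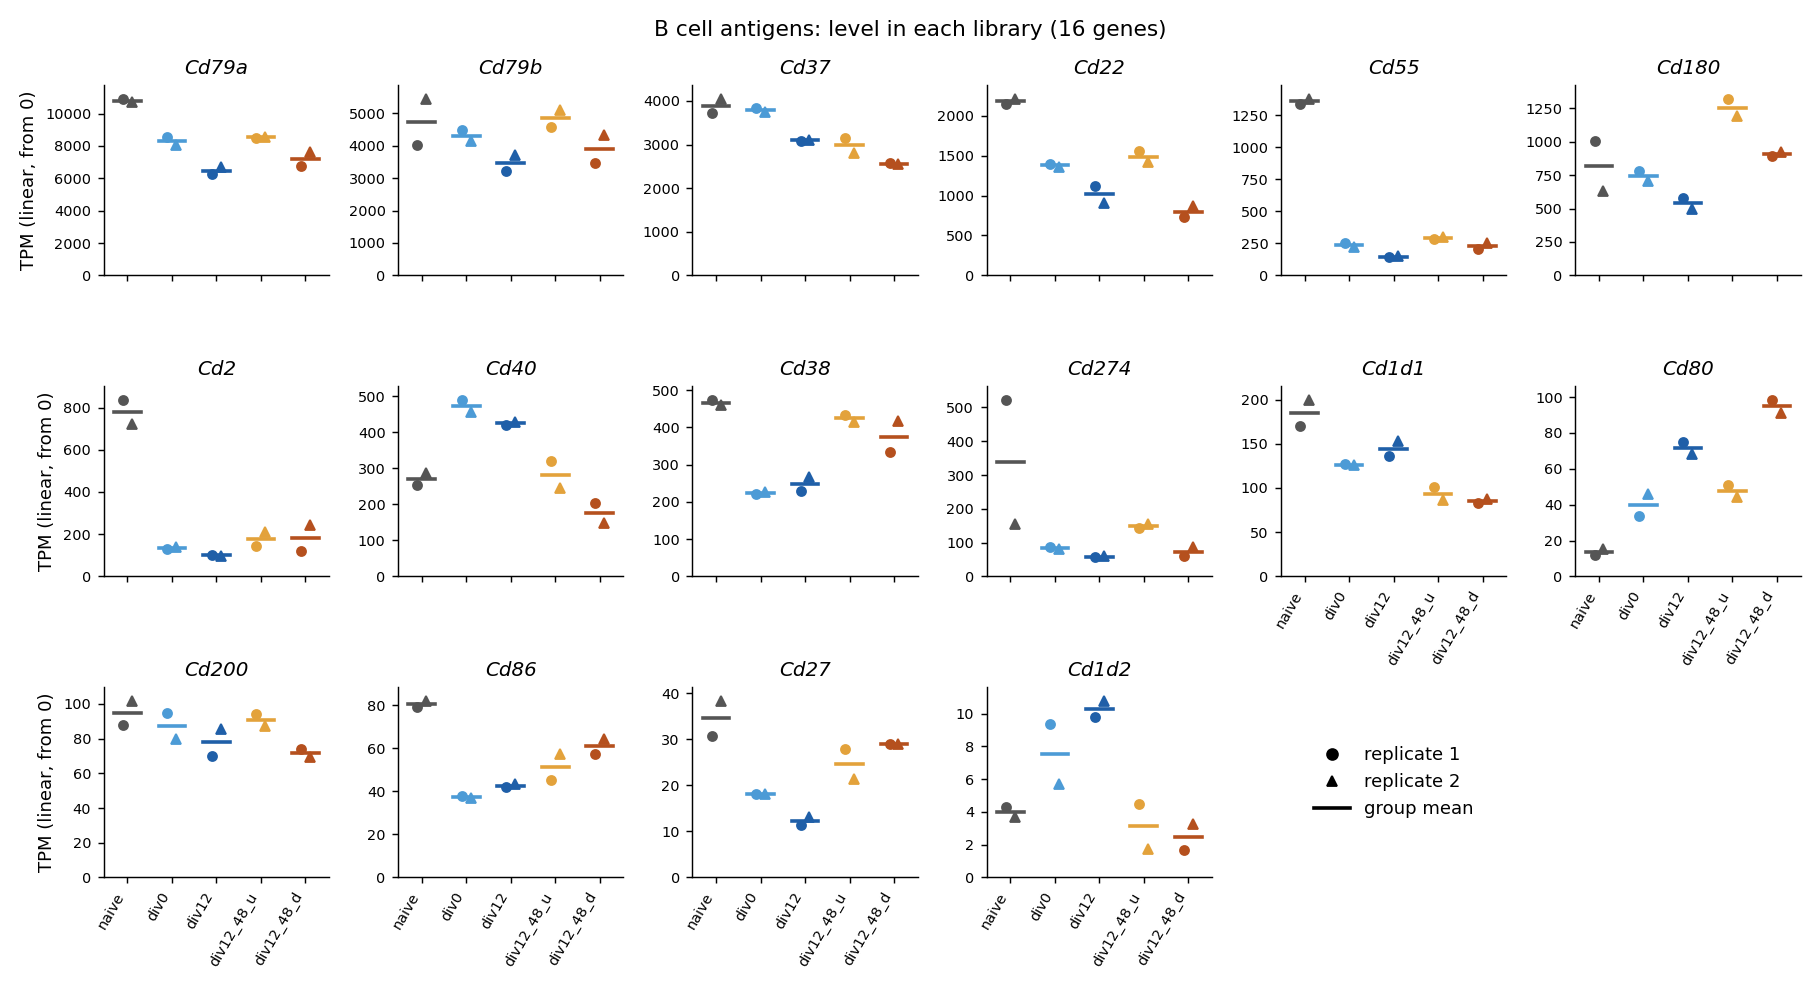
TPM per library (linear axes from 0) of 16 B cell antigens in the 5 groups; each point is 1 of the 2 libraries of a group and the bar is their mean. Cd22 and Cd55 stand highest in the naive libraries and Cd80 lowest there, and Cd22 in div12_48_d (736 and 865 TPM) lies below every other library.

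Cd55 and Cd2 had the steepest falls of the B cell antigens on activation. Cd55, the decay-accelerating factor that shields cells from complement, stood at 1339.8 and 1376 TPM in naive, 253 and 221 in div0, 141 and 153 in div12, 284 and 296 in div12_48_u and 206 and 253 in div12_48_d. Every cultured library was below both naive ones with no overlap, with a log2 change of -2.52 ± 0.11 (adjusted p = 4.56e-06) in div0 and -3.20 ± 0.11 (adjusted p = 1.32e-06) in div12. It was lower in div12 than div0 with a log2 change of -0.69 ± 0.11 (adjusted p = 0.0163). Both Phase II groups were higher than div12, by 0.98 ± 0.11 (adjusted p = 4.50e-04) in div12_48_u and 0.64 ± 0.11 (adjusted p = 0.00759) in div12_48_d. Cd2, the adhesion receptor for Cd48, stood at 836 and 721 TPM in naive, 129 and 140.3 in div0, 102 and 95.8 in div12, 144 and 208 in div12_48_u and 119 and 244 in div12_48_d. Its fall against naive was -2.52 ± 0.30 (adjusted p = 2.96e-04) in div0 and -2.96 ± 0.30 (adjusted p = 6.64e-05) in div12. No difference of Cd2 among the cultured groups was called. The Cd55 difference between div12 and div0 was lost without either div0 library or either div12 library (adjusted p from 0.0555 to 0.176), and that of div12_48_d without div12_48_d replicate 2 (adjusted p = 0.0549).

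Cd38, Cd27 and Cd180 fell in div12 against naive and were higher in both Phase II groups than in div12. Cd38, an enzyme that breaks down NAD, was at 474 and 459 TPM in naive, 221 and 226 in div0, 230.5 and 268 in div12, 432 and 416 in div12_48_u and 334 and 416 in div12_48_d, and the Phase II libraries lay between those of Phase I and naive. Its log2 difference from naive was -1.06 ± 0.11 (adjusted p = 1.90e-04) in div0 and -0.91 ± 0.11 (adjusted p = 2.00e-04) in div12. From div12 it was 0.77 ± 0.11 (adjusted p = 0.00140) in div12_48_u and 0.58 ± 0.11 (adjusted p = 0.0114) in div12_48_d. Cd27, a TNF receptor family member known for memory B cells in humans, was at 30.8 and 38.3 TPM in naive, 18.2 and 18.1 in div0, 11.3 and 13.0 in div12, 28.0 and 21.4 in div12_48_u and 29.0 and 28.9 in div12_48_d. It fell with a log2 change of -0.88 ± 0.16 (adjusted p = 0.00250) in div0 and -1.43 ± 0.16 (adjusted p = 1.23e-04) in div12. Above div12, Cd27 was higher by 0.96 ± 0.16 (adjusted p = 0.00239) in div12_48_u and 1.19 ± 0.16 (adjusted p = 0.00274) in div12_48_d. Cd180, a relative of the Toll-like receptors that promotes B cell growth, was at 1008 and 633 TPM in naive, 778 and 708 in div0, 579 and 499 in div12, 1318 and 1189 in div12_48_u and 895 and 925 in div12_48_d, highest in div12_48_u and lowest in div12. Its change was -0.57 ± 0.19 (adjusted p = 0.0258) for div12 against naive, 1.22 ± 0.19 (adjusted p = 0.00163) for div12_48_u and 0.76 ± 0.19 (adjusted p = 0.0302) for div12_48_d against div12. The Cd38 call in div12_48_d was lost without div12 replicate 1 or div12_48_d replicate 2 (adjusted p from 0.0602 to 0.0758). The Cd180 call in div12 against naive was lost without naive replicate 1 or div12 replicate 2, or with median-ratio scaling, quantile scaling or both groups alone (adjusted p from 0.0881 to 0.425), and its call in div12_48_d without either div0 library, either div12 library or either div12_48_d library, or with no filter, median-ratio scaling, no trend or the top transcript (adjusted p from 0.0517 to 0.165).

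Among the remaining B cell antigens, Cd274, the ligand of the inhibitory receptor PD-1, was at 522 and 156 TPM in naive, 87.2 and 81.7 in div0, 57.9 and 59.3 in div12, 143 and 157 in div12_48_u and 59.5 and 85.7 in div12_48_d, with naive replicate 1 far above all other libraries. It fell with a log2 change of -1.74 ± 0.45 (adjusted p = 0.0116) in div0 and -2.26 ± 0.45 (adjusted p = 0.00225) in div12. It was higher in div12_48_u than div12 by 1.34 ± 0.45 (adjusted p = 0.0433). Cd1d1, which presents lipids to NKT cells, was at 170.0 and 199 TPM in naive, 127 and 126 in div0, 136 and 153 in div12, 101 and 85.9 in div12_48_u and 83.0 and 87.6 in div12_48_d. It fell with a log2 change of -0.54 ± 0.12 (adjusted p = 0.00485) in div0 and -0.35 ± 0.12 (adjusted p = 0.0248) in div12. Against div12 it fell further, with a log2 change of -0.62 ± 0.12 (adjusted p = 0.00351) in div12_48_u and -0.75 ± 0.12 (adjusted p = 0.00414) in div12_48_d. Its near-identical copy Cd1d2 was at 4.28 and 3.66 TPM in naive, 9.34 and 5.68 in div0, 9.81 and 10.8 in div12, 4.46 and 1.76 in div12_48_u and 1.66 and 3.29 in div12_48_d, where reads of the 2 copies may have been split, so that its values are uncertain. Cd1d2 was higher in div12 than naive by 1.18 ± 0.36 (adjusted p = 0.0185). In Phase II it was lower than div12 with a log2 change of -1.54 ± 0.36 (adjusted p = 0.0103) in div12_48_u and -1.74 ± 0.36 (adjusted p = 0.0154) in div12_48_d. Cd200, the ligand of the inhibitory receptor Cd200r1, was at 87.8 and 102 TPM in naive, 94.8 and 79.8 in div0, 70.0 and 85.5 in div12, 94.4 and 87.0 in div12_48_u and 73.8 and 69.6 in div12_48_d, and none of its differences was called.
The size of the Cd274 fall rested on naive replicate 1: without it the log2 changes were -0.87 in div0 and -1.39 in div12, and without naive replicate 2 they were -2.61 and -3.13. The fall in div0 was lost without div0 replicate 2, or with both groups alone (adjusted p from 0.0580 to 0.0780). Its rise in div12_48_u was lost without either div0 library, either div12 library, either div12_48_u library or either div12_48_d library, or with a pseudocount of 5, no filter, median-ratio scaling, quantile scaling, a replicate block or no trend (adjusted p from 0.0512 to 0.145). The div0 call of Cd1d1 was lost with median-ratio scaling (adjusted p = 0.0563). Its div12 call against naive turned to 0.027 under median-ratio scaling and was lost without naive replicate 2 or div12 replicate 1, or with median-ratio scaling, quantile scaling or both groups alone (adjusted p from 0.0778 to 0.831). The div12 call of Cd1d2 was lost without naive replicate 2 or either div12 library, or with the top transcript (adjusted p from 0.0557 to 0.0944), its div12_48_u call without div12 replicate 2 or div12_48_u replicate 2 (adjusted p from 0.0578 to 0.0608). Its div12_48_d call was lost without either div12 library or div12_48_d replicate 1, or with the top transcript (adjusted p from 0.0574 to 0.103).

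Of the costimulatory molecules, Cd40 and Cd80 rose on activation and Cd86 fell. Cd40, the receptor stimulated in both phases, was at 254 and 288 TPM in naive, 489 and 455 in div0, 419.5 and 429.8 in div12, 319.7 and 245 in div12_48_u and 205 and 148 in div12_48_d. Both Phase I groups lay above naive with no overlap, by 0.80 ± 0.17 (adjusted p = 0.00459) in div0 and 0.65 ± 0.17 (adjusted p = 0.00872) in div12. Both Phase II groups lay below div12, with a log2 change of -0.60 ± 0.17 (adjusted p = 0.0213) in div12_48_u and -1.28 ± 0.17 (adjusted p = 0.00232) in div12_48_d. Between the Phase II groups Cd40 differed with a log2 change of -0.68 ± 0.17 (adjusted p = 0.0208) for div12_48_d against div12_48_u. Cd80 was at 11.7 and 15.1 TPM in naive, 33.7 and 45.9 in div0, 74.9 and 68.5 in div12, 51.0 and 44.2 in div12_48_u and 98.3 and 91.3 in div12_48_d. It was lowest in naive and higher in the divided than the undivided cells of either phase. On the log2 scale it rose by 1.50 ± 0.17 (adjusted p = 2.67e-04) in div0 and 2.35 ± 0.17 (adjusted p = 1.46e-05) in div12. It was above div0 by 0.85 ± 0.17 (adjusted p = 0.0290) in div12, and above div12_48_u by 0.98 ± 0.17 (adjusted p = 0.00596) in div12_48_d. In turn div12_48_u lay below div12 with a log2 change of -0.58 ± 0.17 (adjusted p = 0.0270).

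Cd86 moved the other way on activation, at 79.4 and 82.0 TPM in naive, 38.0 and 37.0 in div0, 42.0 and 43.3 in div12, 45.1 and 57.4 in div12_48_u and 57.4 and 64.6 in div12_48_d. Cd86 fell with a log2 change of -1.08 ± 0.13 (adjusted p = 2.68e-04) in div0 and -0.90 ± 0.13 (adjusted p = 3.41e-04) in div12. It was above div12 by 0.50 ± 0.13 (adjusted p = 0.0305) in div12_48_d. The Cd86 level was 6.81 and 5.43 times that of Cd80 in the naive libraries, 1.13 and 0.807 times in div0, 0.561 and 0.631 times in div12, 0.884 and 1.30 times in div12_48_u, and 0.584 and 0.707 times in div12_48_d. The naive ratios of both libraries were thus above those of all 8 cultured ones. The Cd86 call in div12_48_d was lost without either div0 library, either div12 library or either div12_48_d library, or with median-ratio scaling or quantile scaling (adjusted p from 0.0563 to 0.207). The rise of Cd40 in div0 was lost with the top transcript (adjusted p = 0.0955). Its fall in div12_48_u was lost without either div12 library or div12_48_u replicate 2 (adjusted p from 0.0656 to 0.133), and its difference between the Phase II groups without div12_48_u replicate 1 or div12_48_d replicate 2, or with the top transcript (adjusted p from 0.0950 to 0.353). The Phase I division call of Cd80 was lost without either div0 library or either div12 library, or with no filter (adjusted p from 0.0523 to 0.232). Its fall in div12_48_u was lost without either div12 library or either div12_48_u library, or with the top transcript (adjusted p from 0.0565 to 0.132). Its difference between the Phase II groups was lost without div12_48_d replicate 1 (adjusted p = 0.0541).

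**Figure D2:**
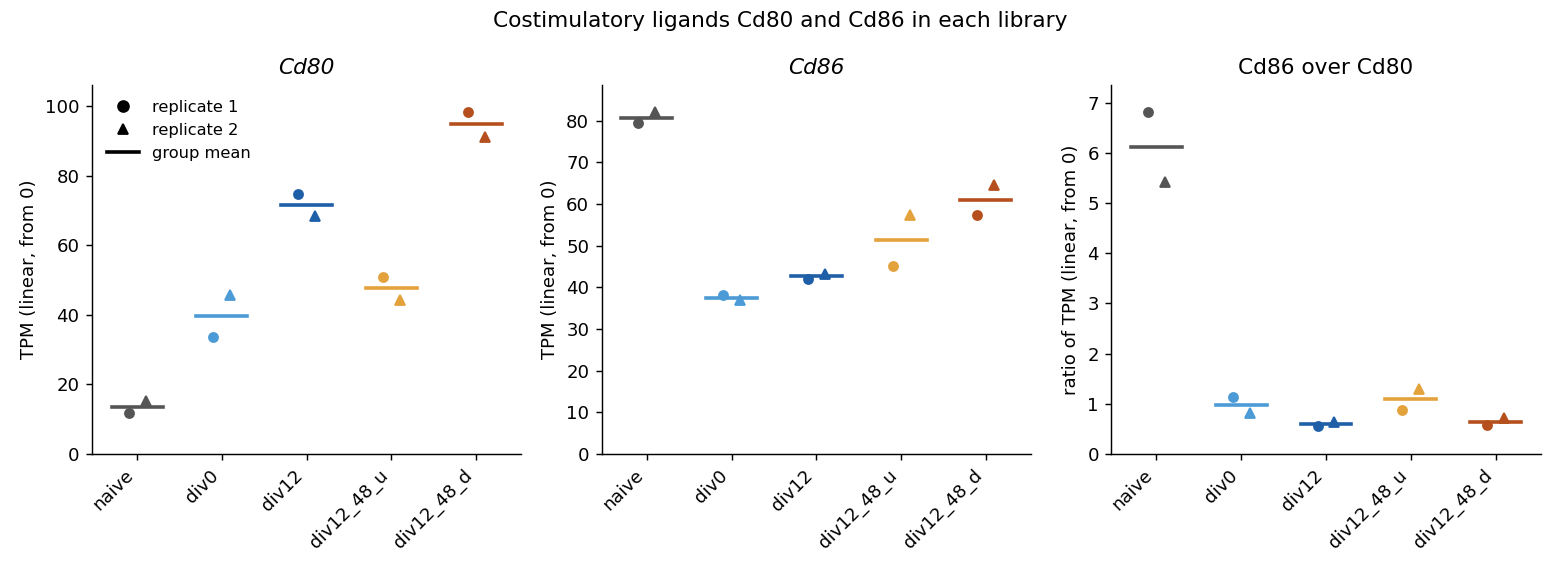
TPM per library of Cd80 and Cd86 (linear axes from 0) and their ratio within each library, by group; points are the 2 libraries of a group and bars are their mean. Both naive ratios, 6.81 and 5.43, lie above those of all 8 cultured libraries, the highest of which is 1.30.

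Of the antigens that many leukocytes share, Cd44, the receptor for hyaluronan, was at 97.5 and 122 TPM in naive, 113 and 129 in div0, 244 and 230.0 in div12, 138 and 108 in div12_48_u and 321 and 298 in div12_48_d. The 4 libraries of div12 and div12_48_d lay above the 6 of the other groups. It rose by 1.11 ± 0.15 (adjusted p = 2.53e-04) in div12 against naive and by 0.97 ± 0.15 (adjusted p = 0.0151) against div0. In Phase II it was higher in div12_48_d than div12_48_u by 1.34 ± 0.15 (adjusted p = 9.98e-04), and lower in div12_48_u than div12 with a log2 change of -0.95 ± 0.15 (adjusted p = 0.00157). Cd52, a small surface glycoprotein of lymphocytes, was the most abundant shared antigen at 7355 and 7444 TPM in naive, 10389.9 and 9654 in div0, 9719.5 and 11633 in div12, 10680.0 and 10875 in div12_48_u and 10404 and 9982 in div12_48_d. Both naive libraries lay below all cultured ones, and Cd52 rose by 0.44 ± 0.10 (adjusted p = 0.00604) in div0 and 0.52 ± 0.10 (adjusted p = 0.00161) in div12. The Cd44 call in div12 against div0 was lost without either div0 library or either div12 library (adjusted p from 0.0513 to 0.171). The div0 call of Cd52 was lost with quantile scaling (adjusted p = 0.494).

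The tetraspanins went different ways. Cd53 was at 1099 and 870.0 TPM in naive, 710.4 and 660.1 in div0, 680.3 and 796 in div12, 758 and 719 in div12_48_u and 544 and 537 in div12_48_d, lowest in div12_48_d. Against naive it fell with a log2 change of -0.51 ± 0.12 (adjusted p = 0.00733) in div0 and -0.41 ± 0.12 (adjusted p = 0.0154) in div12. In div12_48_d it was lower than div12 with a log2 change of -0.44 ± 0.12 (adjusted p = 0.0405) and than div12_48_u with a log2 change of -0.45 ± 0.12 (adjusted p = 0.0277). Cd82 was at 329.9 and 397 TPM in naive, 486 and 526 in div0, 559 and 501 in div12, 413 and 391 in div12_48_u and 329 and 291 in div12_48_d, highest in Phase I. It rose by 0.48 ± 0.11 (adjusted p = 0.00698) in div0 and 0.55 ± 0.11 (adjusted p = 0.00256) in div12. In Phase II it was below div12 with a log2 change of -0.39 ± 0.11 (adjusted p = 0.0219) in div12_48_u and -0.77 ± 0.11 (adjusted p = 0.00348) in div12_48_d. It also differed between the Phase II groups, with a log2 change of -0.37 ± 0.11 (adjusted p = 0.0407). Cd151, at 28.3 and 39.9 TPM in naive, 24.6 and 23.4 in div0, 14.8 and 14.5 in div12, 25.2 and 28.6 in div12_48_u and 23.3 and 22.0 in div12_48_d, was lowest in both div12 libraries. It fell with a log2 change of -0.47 ± 0.16 (adjusted p = 0.0396) in div0. In div12 it fell with a log2 change of -1.14 ± 0.16 (adjusted p = 3.98e-04) against naive and -0.68 ± 0.16 (adjusted p = 0.0426) against div0. Cd151 was above div12 by 0.83 ± 0.16 (adjusted p = 0.00487) in div12_48_u and 0.59 ± 0.16 (adjusted p = 0.0431) in div12_48_d.
The Cd53 calls against naive were lost without div0 replicate 2, or with median-ratio scaling (adjusted p from 0.0549 to 0.203) in div0 and without naive replicate 1 or div12 replicate 1, or with median-ratio scaling, quantile scaling or both groups alone (adjusted p from 0.0768 to 0.879) in div12. In div12_48_d they were lost without either div0 library, div12 replicate 2, either div12_48_u library or either div12_48_d library, or with no filter, a replicate block, no trend or the top transcript (adjusted p from 0.0506 to 0.207) against div12. Against div12_48_u the Cd53 call was lost without either div12_48_u library or either div12_48_d library, or with median-ratio scaling or no trend (adjusted p from 0.0515 to 0.137). The div0 call of Cd82 was lost without div0 replicate 2, or with the top transcript (adjusted p from 0.0555 to 0.272). Its div12_48_u call was lost without div12 replicate 1 or either div12_48_u library, or with the top transcript (adjusted p from 0.0659 to 0.127), and that between the Phase II groups without either div0 library, either div12_48_u library or either div12_48_d library, or with no filter, median-ratio scaling, a replicate block, no trend or the top transcript (adjusted p from 0.0597 to 0.181). The div0 call of Cd151 was lost without naive replicate 2, either div0 library, either div12 library or either div12_48_d library, or with no filter, median-ratio scaling, quantile scaling, both groups alone or the top transcript (adjusted p from 0.0546 to 0.820). In div12 it was lost with the top transcript (adjusted p = 0.332) against naive. Against div0 it was lost without either div0 library, either div12 library, either div12_48_u library or either div12_48_d library, or with a pseudocount of 5, no filter, median-ratio scaling, quantile scaling, a replicate block, no trend or the top transcript (adjusted p from 0.0526 to 0.642). In Phase II it was lost with the top transcript (adjusted p = 0.145) for div12_48_u. For div12_48_d it was lost without either div0 library, either div12 library, either div12_48_u library or either div12_48_d library, or with a pseudocount of 5, no filter, median-ratio scaling, quantile scaling, a replicate block or the top transcript (adjusted p from 0.0566 to 0.197).

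Cd47, the surface signal that restrains phagocytes, was at 342 and 333 TPM in naive, 256 and 266 in div0, 257 and 243 in div12, 262 and 241 in div12_48_u and 242 and 279 in div12_48_d, with no overlap between naive and cultured libraries. It fell with a log2 change of -0.37 ± 0.09 (adjusted p = 0.00825) in div0 and -0.43 ± 0.09 (adjusted p = 0.00265) in div12. Cd320, the receptor that takes up vitamin B12 with its carrier, was at 6.28 and 8.55 TPM in naive, 7.92 and 8.06 in div0, 11.8 and 11.1 in div12, 10.7 and 8.10 in div12_48_u and 16.2 and 15.1 in div12_48_d, highest in div12_48_d. It rose by 0.57 ± 0.18 (adjusted p = 0.0213) in div12 against naive and by 0.69 ± 0.18 (adjusted p = 0.0260) in div12_48_d against div12_48_u. Cd200r1, the receptor for Cd200, was below 5 TPM except in div12_48_d, at 1.21 and 4.86 TPM in naive, 0.487 and 0.908 in div0, 2.12 and 4.00 in div12, 3.68 and 1.98 in div12_48_u and 17.0 and 13.0 in div12_48_d. It was higher in div12_48_d than div12 by 2.01 ± 0.46 (adjusted p = 0.0218) and than div12_48_u by 2.09 ± 0.46 (adjusted p = 0.0131). The plasma cell sum above was also highest in div12_48_d, while the macrophage sum was 2140 and 2090 TPM there, within the range of the other cultured libraries. In that list Mpeg1 (515 and 581 TPM), C1qb (2.54 and 2.40 TPM), Adgre1 (139 and 204 TPM) and Hmox1 (26.9 and 25.0 TPM) were nevertheless higher in div12_48_d than in the other cultured libraries. Among the cultured libraries the NK cell sum was also highest there. Their part in the Cd200r1 result was not tested. Cd302, a C-type lectin, was at 4.88 and 21.9 TPM in naive and 1.00 to 2.30 TPM in culture. It fell with a log2 change of -2.21 ± 0.53 (adjusted p = 0.00812) in div0 and -2.40 ± 0.53 (adjusted p = 0.00381) in div12. Cd59b, a complement inhibitor, stayed at or below 2.81 TPM in every library and was called in no comparison.
The unclassified Cd99l2 was at 12.4 and 13.0 TPM in naive, 14.6 and 14.4 in div0, 22.6 and 24.9 in div12, 18.9 and 17.3 in div12_48_u and 24.1 and 21.3 in div12_48_d. It rose by 0.85 ± 0.13 (adjusted p = 4.48e-04) in div12 against naive and 0.67 ± 0.13 (adjusted p = 0.0222) against div0, and fell with a log2 change of -0.37 ± 0.13 (adjusted p = 0.0431) in div12_48_u against div12. The Cd47 calls were lost without div0 replicate 1, or with median-ratio scaling or the top transcript (adjusted p from 0.0572 to 0.931) in div0 and with median-ratio scaling (adjusted p = 0.563) in div12. The div0 call of Cd302 was lost with both groups alone (adjusted p = 0.0632). The size of its fall rested on the naive libraries, at -3.19 in div0 and -3.38 in div12 without naive replicate 1 and at -1.23 and -1.41 without naive replicate 2. The Cd320 call in div12 was lost without naive replicate 1 or either div12 library, or with both groups alone or the top transcript (adjusted p from 0.0596 to 0.156), and that between the Phase II groups without either div0 library, div12_48_u replicate 2 or either div12_48_d library, or with no filter or the top transcript (adjusted p from 0.0510 to 0.152). The Cd200r1 call against div12 was lost without either div12 library or either div12_48_d library (adjusted p from 0.0522 to 0.105), and that against div12_48_u without div12_48_u replicate 2 or div12_48_d replicate 1 (adjusted p from 0.0803 to 0.0981). The Cd99l2 call against div0 was lost without either div0 library or either div12 library, or with the top transcript (adjusted p from 0.0534 to 0.203). Its div12_48_u call was lost without either div0 library, either div12 library, either div12_48_u library or either div12_48_d library, or with no filter, both groups alone, a replicate block or the top transcript (adjusted p from 0.0562 to 0.243).

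Most antigens of other spleen cells were highest in the naive libraries. Of these 21 genes (T and NK, myeloid and Cd34), 17 were higher in both naive libraries than in all 8 cultured ones. Of the 19 tested, 16 were, beside 1585 of all 4427 tested genes (35.8%) and 8 of the 17 B cell antigens. These counts are a description: 11 of the 21 were tested only because of their naive level, which favours the pattern, and 2 were not tested. The share of all tested genes is therefore no fair background for the 16. Among the antigens that reached 1 TPM in 2 cultured libraries, Cd244a, Cd247, Cd4, Cd28 and Cd163 had the pattern, and Cd36, Cd68 and Cd96 did not. Without Cd36, Cd68 and Cd96, all 18 stayed below 4 TPM in culture, with a maximum of 3.45 TPM, and 11 of the 21 were below 1 TPM in every cultured library. Among T and NK antigens, Cd3e, a chain of the T cell receptor complex, was at 10.3 and 10.2 TPM in naive and at most 0.34 TPM in culture. The signalling chain Cd247 was at 10.7 and 18.1 TPM, the co-receptor Cd4 at 7.28 and 10.4 TPM, Cd28 at 7.53 and 2.83 TPM, Cd7 at 30.4 and 57.0 TPM and Cd244a at 9.91 and 20.0 TPM in naive. None of these exceeded 3.08 TPM in culture. Cd8a and Cd226 stayed at or below 3.73 TPM throughout.

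Of the 21, 18 were higher in naive replicate 2 than in replicate 1. So were 38 of all 49 members, among them 8 of the 10 shared and 11 of the 17 B cell antigens. The median ratio of replicate 2 to replicate 1 was 2.41 over myeloid antigens and 1.03 over B cell antigens. The share over all genes was not computed. Cd300a, an inhibitory receptor of myeloid cells, was at 11.5 and 52.1 TPM in naive, and its relatives Cd300c2 at 5.24 and 30.1 and Cd300e at 3.39 and 17.7 TPM. In the same libraries Cd163, the haemoglobin scavenger of macrophages, was at 8.29 and 20.0 TPM, Cd14, the co-receptor for lipopolysaccharide, at 9.80 and 18.5 TPM and Cd209a, a lectin of dendritic cells, at 5.64 and 12.9 TPM. Cd300c and Cd101 had group means below 5 TPM in every group. The Cd300 genes resemble each other, so reads may have been split among them. The same replicate also had the higher sums of macrophage and granulocyte markers given above. The one T cell antigen called between cultured groups was Cd28, at 0.16 to 2.53 TPM in culture, which was higher in div12_48_d than div12 by 1.32 ± 0.35 (adjusted p = 0.0386). It was lost without either div0 library, either div12 library, either div12_48_u library or either div12_48_d library, or with a pseudocount of 5, no filter, quantile scaling or a replicate block (adjusted p from 0.0523 to 0.252).

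**Figure D3:**
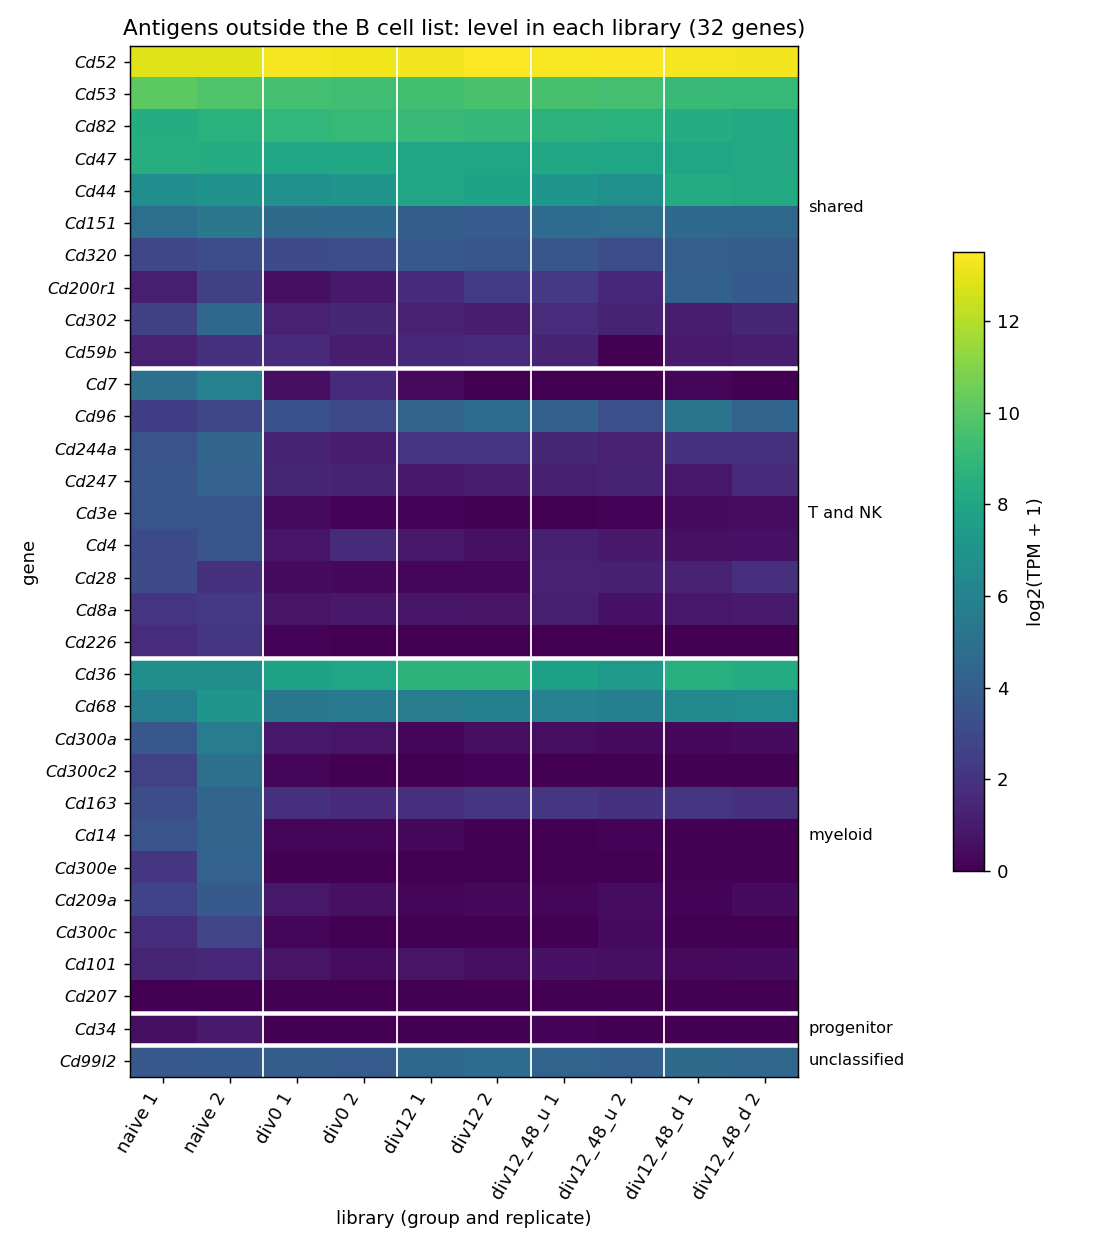
Log2(TPM + 1) in each of the 10 libraries (columns) of the 32 members outside the B cell list (rows, in blocks by list). Most T and NK, myeloid and progenitor rows are brightest in the 2 naive libraries, while Cd36, Cd68 and Cd96 are bright in cultured ones too.

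Cd36, Cd96 and Cd68 departed from that pattern. Cd36, a scavenger receptor and fatty acid transporter that marginal zone B cells are also known to carry, was at 100.3 and 104 TPM in naive, 223 and 251 in div0, 419 and 418 in div12, 207 and 156 in div12_48_u and 366 and 320.5 in div12_48_d. Every cultured library lay above both naive ones, and divided cells above undivided ones in each phase. It rose by 1.21 ± 0.13 (adjusted p = 2.22e-04) in div0 and 2.03 ± 0.13 (adjusted p = 8.28e-06) in div12. It was higher in div12 than div0 by 0.82 ± 0.13 (adjusted p = 0.0163) and in div12_48_d than div12_48_u by 0.93 ± 0.13 (adjusted p = 0.00296). In turn it was lower in div12_48_u than div12 with a log2 change of -1.22 ± 0.13 (adjusted p = 3.99e-04). Cd96, a receptor of T and NK cells, was at 4.78 and 6.46 TPM in naive, 9.70 and 6.91 in div0, 19.2 and 25.3 in div12, 17.4 and 8.74 in div12_48_u and 35.7 and 20.1 in div12_48_d, with both naive libraries below all cultured ones. It rose by 1.81 ± 0.36 (adjusted p = 0.00224) in div12 against naive. Cd68, a lysosomal protein of phagocytes, was at 55.4 and 133 TPM in naive, 41.6 and 46.0 in div0, 50.4 and 56.1 in div12, 63.5 and 55.0 in div12_48_u and 87.4 and 93.1 in div12_48_d and was called once, in div0 against naive at -0.96 ± 0.33 (adjusted p = 0.0347). Of the macrophage markers above, Mpeg1 was at 402 and 435 TPM in div12 and 515 and 581 TPM in div12_48_d, the libraries where Cd36 was highest, against 207 and 241 TPM in div0 and 305 and 303 TPM in div12_48_u. C1qb was at 2.54 and 2.40 TPM in div12_48_d and at most 0.36 TPM in the other cultured libraries, and C1qa was at 0 TPM in all of them. Among the T cell markers Lck was at 346 to 445 TPM in Phase II and 125 to 151 TPM in Phase I. The part of other cells in the values of Cd36, Cd68 and Cd96 was not tested. The Cd36 call of div12 against div0 was lost without either div0 library or either div12 library, or with the top transcript (adjusted p from 0.0517 to 0.176). The Cd68 call was lost without naive replicate 2, either div0 library, either div12_48_u library or either div12_48_d library, or with no filter, median-ratio scaling, quantile scaling or both groups alone (adjusted p from 0.0517 to 0.145). Its log2 change was -1.59 without naive replicate 1 and -0.33 without naive replicate 2.

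The 2 division comparisons, div12 against div0 and div12_48_d against div12_48_u, share no library. In the first 7 members were called and in the second 9, and 3 in both: Cd44, Cd80 and Cd36, each higher in the dividing cells. These 3 are 42.9% of the Phase I calls and 33.3% of the Phase II calls. Over all tested genes 388 were called in Phase I and 1134 in Phase II, and 313 in both, 312 of them with the same sign. That is 80.7% of the Phase I calls and 27.6% of the Phase II calls. Over all 47 members the 2 changes had the same sign in 31, and over all 4427 genes in 3372 (76.2%). Cd79a, Cd55 and Cd151, which fell, and Cd99l2, which rose, passed the test in Phase I and not in Phase II. Cd320 and Cd200r1, which rose, and Cd22, Cd40, Cd53 and Cd82, which fell, passed it in Phase II and not in Phase I. The difference of the 2 division effects itself called 0 of 47 members and 0% of all genes by limma, with 4 members and 438 of all genes at an unadjusted p under 0.05 and a smallest adjusted p of 0.257 among the members. The 7 Phase I calls were lost when any 1 of the 4 libraries compared was left out, which also lowers the degrees of freedom. Without div12 replicate 1 the single member called was Cd22, which is not one of the 7. Without either naive library 14 members were called, the 7 among them. In a fit of the compared groups alone 15 members were called.

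**Figure D4:**
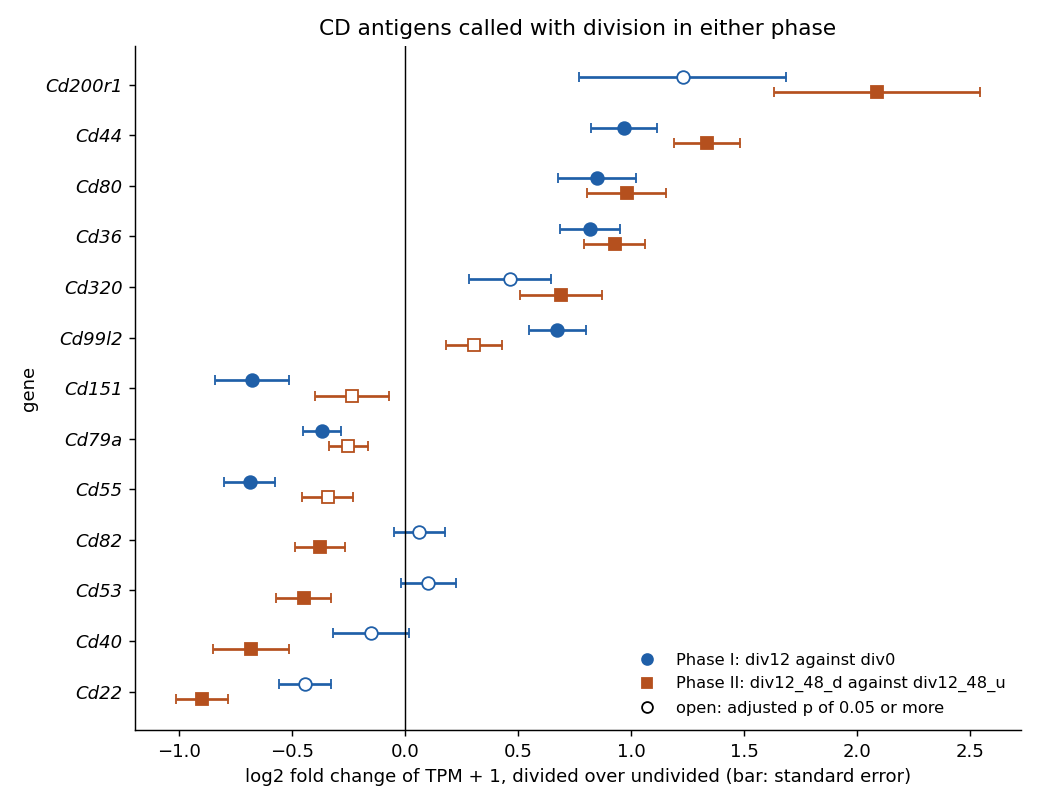
Log2 fold change of TPM + 1 (x axis, bar: standard error) of divided over undivided cells in Phase I (circles) and Phase II (squares) for the CD antigens called in either (rows); open symbols did not pass the test. Both symbols of Cd44, Cd80 and Cd36 are filled and lie to the right of 0.

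Genes that act with these antigens were counted from lists chosen by function. Of 26 tested partners of the antigen receptor (39 listed), 2 were higher and 17 lower in div0 against naive, where 15.4% of all genes were higher and 39.6% lower. In div12 against naive 2 were higher and 22 lower, where 19.4% and 47.5% of all genes were. In div12_48_u against div12, where 27.7% of all genes rose and 13.6% fell, 20 rose and 0 fell, among them Nfatc1, a calcium-driven transcription factor (2.11 ± 0.20), the kinase subunit Pik3cd (1.25 ± 0.14) and its adaptor Pik3ap1 (1.11 ± 0.10). In div12_48_d against div12_48_u, 0 rose and 8 fell, beside 12.2% and 13.4% of all genes. Cd79a, Cd79b and Cd22, their membrane partners, also rose in div12_48_u, though the calls of Cd79a and Cd79b were lost with median-ratio scaling. The partner lists were counted in the main fit alone and not under the alternatives. Of 22 tested partners of CD40 (26 listed), 8 rose and 6 fell in div0 against naive, with the adaptor Traf1 at 1.99 ± 0.13, and 7 rose and 11 fell in div12. The percentages of all genes are those given for the receptor partners. In div12_48_u against div12 10 rose and 0 fell, and in div12_48_d against div12_48_u 1 rose, Tnfsf9, the ligand of 4-1BB (2.22 ± 0.23), and 10 fell, among them Icosl, the ligand of ICOS (-1.65 ± 0.19).

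Of the CD antigens whose genes carry other symbols, 46 were tested (57 listed), with 6 higher and 30 lower in div0 against naive, and 8 and 28 in div12, beside 15.4% higher and 39.6% lower of all genes in div0 and 19.4% and 47.5% in div12. Of the 46, 1 (Tnfrsf17) did not reach 1 TPM in 2 cultured libraries. It passed the filter through naive replicate 2 together with div12_48_d replicate 2. The chemokine receptor Cxcr4 fell with a log2 change of -5.02 ± 0.17 and the death receptor Fas rose by 2.75 ± 0.21 in div0. Between the Phase II groups 10 of these 46 were higher and 15 lower in div12_48_d, beside 12.2% and 13.4% of all genes. Ctla4, which binds Cd80 and Cd86, was higher in div12_48_d than div12 by 3.21 ± 0.48, and Fcer2a, the low-affinity IgE receptor of mature B cells, was lower with a log2 change of -1.49 ± 0.13.

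For 24 of the 49 members the table lists 1 transcript and for 25 several, so that a summed level can hide a switch of transcript. The most abundant transcript of Cd44 made up 84.7% to 91.2% of its 6 transcripts in every library, that of Cd22 67.9% to 79.2% of 4, that of Cd80 49.3% to 78.7% of 2, that of Cd36 44.6% to 68.0% of 5 and that of Cd40 32.3% to 55.9% of 5. Cd44 thus rested mainly on 1 transcript, and Cd40 on several.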

How the data were processed

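Ribosome-depleted total RNA, 100 ng per library, was sequenced as single-end reads of 50 bp in 10 libraries, per the labels' protocols. The deposited values are TPM per transcript, and the build mm10 and the tools DESeq2, Salmon, HTSeq, HISAT2 and featureCounts are listed per the submitters' processing notes, with no roles, versions or strand use given in the sources used here. Of 13128 transcripts, 63 without a symbol were left out and 13065 were summed into 6610 genes. TPM keeps no counts, so depth is unknown and no count model was fitted.

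The log2 of TPM + 1 was compared between groups with limma (3.58.1, R 4.3.3), as 1 model over all 10 libraries with group as its only term and moderation with a trend. P-values were two-sided, with 5 residual degrees of freedom and 8.357 in total after moderation. They were adjusted by Benjamini-Hochberg over 4427 genes (at least 1 TPM in at least 2 libraries) with a threshold of 0.05. The fit was tested on simulated data. Among the members, 1 of the B cell antigens is counted in its list but not reported here by itself. The 7 comparisons, the members and all lists were chosen with earlier results of these data known, and the members' lists were set by known expression.

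Values in every library are given for each B cell antigen with a group mean of at least 10 TPM. They are given at least for naive or the highest group for other antigens of at least 5 TPM, and for shared antigens of at least 10 TPM. Of the partner lists at most 4 called genes per list and comparison are named, those with the largest change among genes whose higher group mean reached 10 TPM. Alternatives were a pseudocount of 0.1 or 5, no filter or one at 5 TPM, median-ratio scaling, quantile normalization, the compared groups alone, no naive group, a replicate block, no trend, the most abundant transcript and each library left out, where a group's lone library was taken to vary as other groups do. A replicate block with the div12 numbers crossed was chosen after seeing the data. Figures used Python 3.11.15 and matplotlib 3.10.9.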

Additional observations from a re-analysis of the deposited data

How the results depend on the processing

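Of 123 called changes of the single members reported, 70 were called under every alternative run and 53 were lost under at least 1. The 123 include the calls against naive of the 11 members that did not reach 1 TPM in 2 cultured libraries. For these the filter favours a lower level in culture, so that their calls add little to the number kept. Alternatives that dropped a member from the fit were not counted for it. Under median-ratio scaling 2 of the 123 reversed, both in div12 against naive: Cd37 at 0.058 and Cd1d1 at 0.027. The cause was not tested. That scaling moves the all-gene median from -0.24 to 0.00 in div0 against naive, from -0.35 to 0.00 in div12 against naive and from 0.16 to -0.01 in div12_48_u against div12. The 7 members called in div12 against div0 became 4 with no filter, 15 with the compared groups alone, 14 without the naive group and 4 with the most abundant transcript, and the cause was not tested. With 1 library left out, called members numbered 25 to 34 in div0 against naive, 30 to 43 in div12 against naive, 0 to 14 in div12 against div0, 11 to 19 in div12_48_u against div12, 5 to 15 in div12_48_d against div12, 4 to 13 between the Phase II groups and 0 for the difference of the division effects. Same-numbered libraries deviated from their group means with correlations from -0.24 (div0 and div12) to 0.20 (the Phase II groups) over 4427 genes, so the numbers were not taken to pair them. With the replicate block, 35, 43, 5, 15, 10, 8 and 0 members were called in the 7 comparisons in the same order. With the div12 numbers crossed, chosen after seeing the data, the block called 7 in div12 against div0 and 13 in div12_48_d against div12. Depth is unknown, so members near the 1 TPM filter carry an error that these values do not show.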
